A study of Mus musculus with 8 samples.

Results

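The immunoglobulin variable segments are the germline genes from which antibody-producing cells build the antigen-binding end of a heavy, kappa or lambda chain. The deposited table of 34745 genes holds 350 rows whose symbol starts with Ighv, Igkv or Iglv, and 147 of them were above 0 FPKM in at least 1 of 8 heart libraries. FPKM is a fragment count scaled by exon length and by the mapped fragments of the library. These 147 are the segments described here, 67 of 185 heavy-chain rows, 77 of 162 kappa rows and all 3 lambda rows. Because they were chosen by these FPKM values, the numbers and sums of segments per library are given as a description, with no test. The other 203 rows were at 0 in every library, and the lowest value above 0 was 0.0853 FPKM, for Ighv1-12 in the first EAM WT library. The highest value of 27 of the 147 segments stayed under 0.2 FPKM.

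Mouse hearts were profiled by messenger RNA sequencing in a study of TRIM21, an E3 ubiquitin ligase and cytosolic antibody receptor, in experimental autoimmune myocarditis (EAM). EAM was raised by subcutaneous immunization, on days 0 and 7, with a cardiac myosin heavy chain peptide emulsified in complete Freund's adjuvant (CFA). Hearts fell into 3 groups, wild-type control hearts at day 0 (n = 2), wild-type EAM hearts at day 21 (EAM WT, n = 3) and TRIM21KO EAM hearts at day 21 (EAM KO, n = 3). All 8 libraries carry the label Balb/c, and the labels do not say how the knockout was made, on which strain, or whether libraries of a group are separate animals. The protocol gives the controls adjuvant with buffer, whereas the labels place them at day 0, so day and immunization cannot be told apart. A second deposited sheet names the EAM libraries with day 35 in place of day 21. P-values measure the spread between these libraries, which may be technical in part.

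As background, a developing B cell joins 1 variable segment to a joining segment (with a diversity segment between them in the heavy chain), so each B cell clone and its plasma cell descendants transcribe chiefly the segments it joined. Plasma cells carry far more immunoglobulin messenger RNA than resting B cells, so a few of them can dominate the immunoglobulin reads of a tissue. In bulk hearts, fewer cells of a type and less RNA per cell cannot be told apart, and the table does not separate joined from germline transcripts. The heavy-chain segments lie on chr12:113572927-116010093, the kappa segments on chr6:67555497-70704177 and the lambda segments on chr16:19085017-19260859 (mm10).

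The depth behind these values was low for single segments. Steps in the low FPKM values gave about 14390000 to 16950000 fragments per library, and 3 fragments on a segment of 350 bases equalled 0.506 to 0.596 FPKM. Of the 409 segment values above 0, 79% lay within 0.1 of a whole number of fragments. Trim21 itself was at 1.98 and 2.18 FPKM in control, 2.98, 3.29 and 3.37 in EAM WT, and 0.0481, 0 and 0.022 in EAM KO. The 6 atrial genes Sln, Myl7, Myl4, Nppa, Bmp10 and Dkk3 summed to 3968 to 5382 FPKM in EAM WT 2, EAM KO 1 and EAM KO 2, and to 167 to 773 FPKM in the other 5 libraries. Those 3 libraries stand apart, and the main results are also given without them. The other 5 still differed in atrial genes. Myl7 was at 48.6 FPKM in EAM WT 1 and 169 in EAM WT 3, against 1.2 and 1.04 in control and 0.621 in EAM KO 3. Sln was at 15.5 and 58.9 FPKM, against 0.459 and 0.132 in control and 0.119 in EAM KO 3, whereas Bmp10 was at 0 in all 5. Leaving out the 3 libraries thus does not even out atrial transcripts between the groups.

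The segment with the highest FPKM in each EAM library and the heavy-chain segments Ighv5-17 and Ighv1-22 are described further below. The V exons of these 8 segments are shown here. Each is the reference sequence (mm10, GENCODE M21 exons), 5′ to 3′ on the segment's strand, cut to its last 300 bases or fewer. Capitals run from the last in-frame cysteine codon to the end of the exon, where the germline part of the third complementarity-determining region begins. The positions are chr6:69823355-69823652 (minus strand) for Igkv5-43, chr6:70406469-70406766 (minus) for Igkv6-15, chr6:68270968-68271267 (plus) for Igkv1-110 and chr6:68425774-68426072 (plus) for Igkv16-104. They are chr6:68768555-68768854 (minus) for Igkv4-91, chr6:69607275-69607574 (minus) for Igkv4-55, chr12:113859149-113859448 (minus) for Ighv5-17 and chr12:114746273-114746572 (minus) for Ighv1-22.
Igkv5-43: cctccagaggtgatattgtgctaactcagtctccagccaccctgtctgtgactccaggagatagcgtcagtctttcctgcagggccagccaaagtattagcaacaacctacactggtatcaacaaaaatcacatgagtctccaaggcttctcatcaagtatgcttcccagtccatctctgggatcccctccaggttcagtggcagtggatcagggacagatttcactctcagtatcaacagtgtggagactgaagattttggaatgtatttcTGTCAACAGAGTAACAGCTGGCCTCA
Igkv6-15: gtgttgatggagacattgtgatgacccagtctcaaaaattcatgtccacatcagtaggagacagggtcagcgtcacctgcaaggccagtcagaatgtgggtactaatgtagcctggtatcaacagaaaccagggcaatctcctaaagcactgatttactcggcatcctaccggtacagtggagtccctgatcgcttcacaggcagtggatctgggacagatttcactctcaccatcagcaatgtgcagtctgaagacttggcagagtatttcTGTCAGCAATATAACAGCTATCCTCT
Igkv1-110: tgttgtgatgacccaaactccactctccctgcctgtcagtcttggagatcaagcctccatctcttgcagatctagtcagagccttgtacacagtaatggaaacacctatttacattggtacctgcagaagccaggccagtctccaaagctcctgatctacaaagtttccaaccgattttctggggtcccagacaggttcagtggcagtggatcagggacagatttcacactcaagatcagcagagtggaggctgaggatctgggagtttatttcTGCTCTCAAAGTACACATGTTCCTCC
Igkv16-104: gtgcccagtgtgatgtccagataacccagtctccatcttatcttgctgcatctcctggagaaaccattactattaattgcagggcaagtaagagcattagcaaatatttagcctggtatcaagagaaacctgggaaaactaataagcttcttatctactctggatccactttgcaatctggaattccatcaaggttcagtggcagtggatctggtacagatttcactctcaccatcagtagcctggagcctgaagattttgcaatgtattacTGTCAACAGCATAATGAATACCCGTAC
Igkv4-91: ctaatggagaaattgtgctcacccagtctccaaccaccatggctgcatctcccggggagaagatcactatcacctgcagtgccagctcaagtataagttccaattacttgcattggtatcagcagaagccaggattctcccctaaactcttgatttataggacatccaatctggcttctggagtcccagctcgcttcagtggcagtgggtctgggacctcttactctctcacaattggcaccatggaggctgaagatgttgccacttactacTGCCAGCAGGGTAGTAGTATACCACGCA
Igkv4-55: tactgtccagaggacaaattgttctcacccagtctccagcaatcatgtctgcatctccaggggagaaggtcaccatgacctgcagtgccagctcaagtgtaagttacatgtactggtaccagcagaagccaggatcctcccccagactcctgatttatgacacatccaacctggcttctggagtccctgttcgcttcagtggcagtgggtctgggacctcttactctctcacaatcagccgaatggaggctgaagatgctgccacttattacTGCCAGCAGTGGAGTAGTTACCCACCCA
Ighv5-17: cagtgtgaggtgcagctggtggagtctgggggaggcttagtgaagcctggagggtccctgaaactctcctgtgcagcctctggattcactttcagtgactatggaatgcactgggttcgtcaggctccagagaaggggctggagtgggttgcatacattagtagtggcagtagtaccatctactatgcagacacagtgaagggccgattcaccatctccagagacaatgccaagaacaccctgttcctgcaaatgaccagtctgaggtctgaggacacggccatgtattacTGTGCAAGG
Ighv1-22: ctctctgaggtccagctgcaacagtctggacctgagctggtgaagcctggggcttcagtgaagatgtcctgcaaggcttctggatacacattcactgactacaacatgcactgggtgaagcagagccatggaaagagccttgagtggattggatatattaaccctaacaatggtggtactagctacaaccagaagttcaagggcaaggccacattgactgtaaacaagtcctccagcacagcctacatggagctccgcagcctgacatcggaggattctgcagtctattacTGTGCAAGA
Among the 6 kappa exons the identity between pairs ran from 60.7% (Igkv1-110 and Igkv4-91) to 84.8% (Igkv4-91 and Igkv4-55), so the leading segments of different libraries were distinct genes. Ighv5-17 and Ighv1-22 were 63.9% identical.

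Segments were more numerous and more abundant in every EAM library than in either control. Control 1 and control 2 each held 12 segments above 0 FPKM. EAM WT 1, 2 and 3 held 73, 102 and 31, and EAM KO 1, 2 and 3 held 64, 83 and 32. Neither EAM group overlapped control, whereas the 2 EAM groups overlapped each other, with 1 library of each near 30 and the others between 64 and 102. The means were 12 ± 0 (SD, n = 2) in control, 68.7 ± 35.7 (SD, n = 3) in EAM WT and 59.7 ± 25.8 (SD, n = 3) in EAM KO. The 9 segments that separate the EAM means lie within the spread of either group, and leaving out EAM WT 2 or EAM KO 3 turned the order round, to 7.67 or 4.83 more segments in the knockout. The difference, knockout minus wild type, was -27.8 segments without EAM WT 3, -20.7 without EAM KO 2 and -20 without the 3 libraries high in atrial genes.

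The summed level of the segments was 2.72 and 3.35 FPKM in control. It was 77.4, 131 and 14.4 FPKM in EAM WT and 43.7, 50.3 and 10.4 FPKM in EAM KO. The third library of each EAM group was the lowest of its group and still above both controls. The group means were 3.04 ± 0.447 FPKM (SD, n = 2) in control, 74.1 ± 58.2 (SD, n = 3) in EAM WT and 34.8 ± 21.4 (SD, n = 3) in EAM KO, which puts EAM WT 24.4-fold and EAM KO 11.5-fold above control. The knockout mean was 0.47 of the wild-type mean, and that gap was smaller than the SD of EAM WT. The log2 ratio of these means, -1.09, became -0.40 without EAM WT 2 and -2.14 without the 3 libraries high in atrial genes. In estimated fragments the sums were 17.1 and 18.6 in control, 418, 745 and 79.9 in EAM WT, and 244, 291 and 64.2 in EAM KO. Without the 3 libraries high in atrial genes, the log2 ratio of the sums was 3.92 in place of 4.61 for EAM WT against control, as it was without EAM WT 2 alone, and 1.78 in place of 3.52 for EAM KO against control, which then rests on EAM KO 3 alone.

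**Figure D1:**
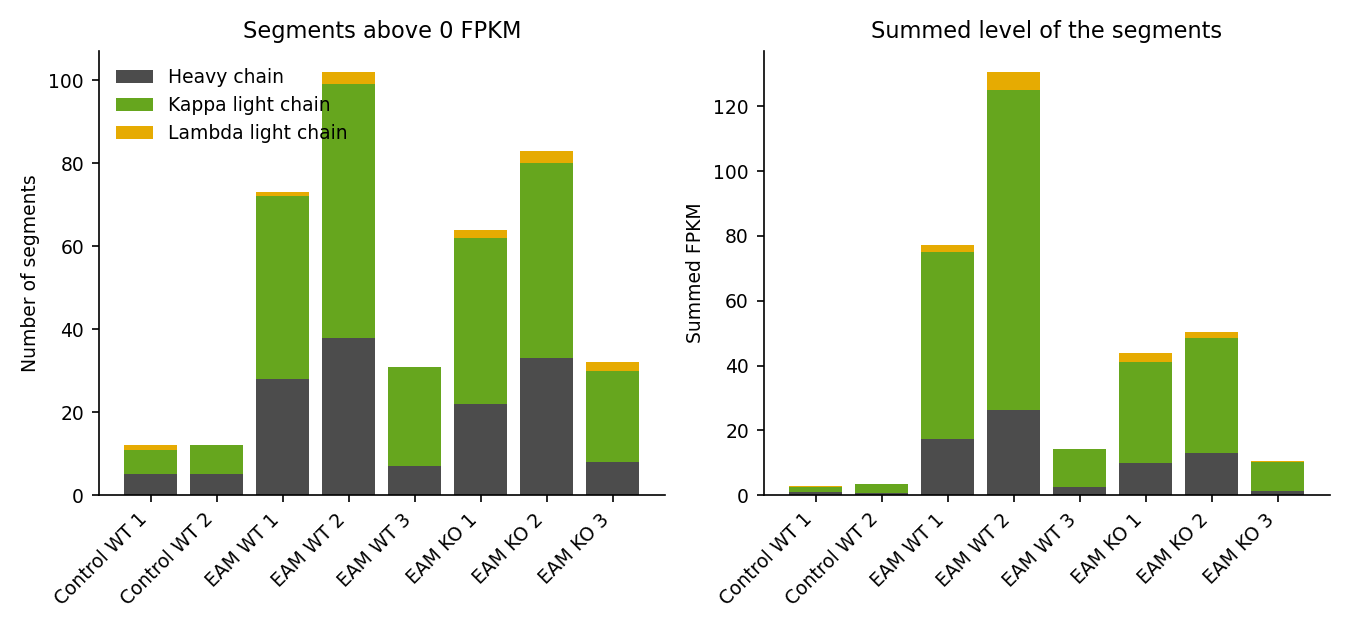
Number of variable segments above 0 FPKM (left) and their summed FPKM (right) in each of the 8 libraries, as bars stacked by locus. All 6 EAM libraries stand above both controls, and the third library of each EAM group is the lowest, with 31 and 32 segments.

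Kappa segments made up most of the sum in all 8 libraries. Their share of segment fragments was 55.9% and 78.1% in control (95% Wilson intervals 36 to 78.4% and 56.7 to 91.5%, counting error only). It was 74.5%, 75.1% and 82.4% in EAM WT and 70.9%, 70.3% and 84.8% in EAM KO, where the groups overlapped. Lambda segments reached 4.23% of the summed FPKM in EAM WT 2 and 5.93% in EAM KO 1, and were at 0 in control 2 and EAM WT 3. Mouse light chains are mostly kappa, as background.

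Segments above 0 were mostly those annotated as functional. Of the 219 rows annotated as functional variable genes, 142 (64.8%) were above 0 somewhere, against 5 of the 131 pseudogene rows (3.82%). The 5 pseudogene rows were Ighv1-14, Ighv1-21, Ighv1-33, Ighv3-2 and Ighv4-2, all of the heavy chain, and none of the 61 kappa pseudogene rows was above 0. Pseudogene rows were above 0 in EAM WT 1 and 2 alone, with 3 in each. Among functional genes the kappa share was 76.2% of 101 and the heavy-chain share 53.9% of 115. Many segments have near copies: 79 of the 147 (53.7%) had another segment at least 95% identical over the V exon, so the values of single segments are uncertain where fragments could be assigned to either copy.

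Lambda segments show how close such copies can be. Iglv1 (chr16:19085022-19085321, minus strand) and Iglv2 (chr16:19260406-19260705, minus strand) differ at 9 of 300 bases of the V exon, which are in capitals here.
Iglv1: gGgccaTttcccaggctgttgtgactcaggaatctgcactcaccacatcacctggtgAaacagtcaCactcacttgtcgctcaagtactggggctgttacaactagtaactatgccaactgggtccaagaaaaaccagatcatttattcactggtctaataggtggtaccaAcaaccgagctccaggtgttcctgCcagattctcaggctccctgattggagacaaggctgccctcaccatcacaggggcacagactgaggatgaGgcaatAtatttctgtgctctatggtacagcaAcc
Iglv2: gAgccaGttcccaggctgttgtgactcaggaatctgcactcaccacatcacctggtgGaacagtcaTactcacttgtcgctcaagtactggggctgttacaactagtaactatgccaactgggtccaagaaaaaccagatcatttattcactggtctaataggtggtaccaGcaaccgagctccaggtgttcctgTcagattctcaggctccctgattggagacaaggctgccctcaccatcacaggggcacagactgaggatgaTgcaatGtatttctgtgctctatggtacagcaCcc
Iglv1 was at 0.151 and 0 FPKM in control, 2.13, 2.67 and 0 in EAM WT, and 2.22, 1.14 and 0.156 in EAM KO. Iglv2 was at 0 in both controls, EAM WT 1 and EAM WT 3. Its level was 0.457 FPKM in EAM WT 2 and 0.374, 0.627 and 0.0855 in EAM KO. Iglv2 did not exceed Iglv1 in any library.

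Segments differed in how many libraries they reached. No segment was above 0 in all 8 libraries, 4 were in 7 libraries (Ighv5-17, Igkv1-117, Igkv10-96 and Igkv6-23), and 40 (27.2%) were in 1 library. Of these single-library segments, 20 rested on at most 1.2 fragments. Igkv1-117, Igkv10-96, Igkv6-23 and Igkv8-30 were the 4 segments above 0 in all 6 EAM libraries. The controls shared 2 of their 12 segments, Ighv2-9 and Ighv5-17, and 8 of the 12 in each control rested on at most 1.2 fragments.

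Each EAM group as a whole held 118 segments, 80.3% of the 147, and 90 were common to both groups, which is 76.3% of each set. EAM WT held 21 segments in all 3 of its libraries and EAM KO held 10. Across groups, 26 segments were in EAM WT alone, 28 in EAM KO alone, 71 in both EAM groups and not in control, and 1 (Ighv1-37, at 0.104 FPKM in control 2) in control alone. The share of all genes with these patterns was not computed, and control has 2 libraries against 3 in each EAM group. These counts are therefore a description only. Between single libraries, EAM WT 1 and 2 shared 58 segments (79.5% and 56.9% of their sets), and EAM KO 1 and 2 shared 39 (60.9% and 47%). The libraries with the fewest segments, EAM WT 3 and EAM KO 3, shared 10 (32.3% and 31.2%).

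A different segment led each EAM library. Igkv5-43 led EAM WT 1 at 8.25 FPKM, Igkv6-15 led EAM WT 2 at 10.3 and Igkv1-110 led EAM WT 3 at 2.92. Igkv16-104 led EAM KO 1 at 3.18, Igkv4-91 led EAM KO 2 at 5.36 and Igkv4-55 led EAM KO 3 at 1.29. All 6 are kappa segments, and no single segment dominated a library. The leading segment held 10.8%, 7.37% and 21.2% of the segment fragments in EAM WT (95% Wilson intervals 8.14 to 14.1%, 5.72 to 9.49% and 13.7 to 31.4%). It held 7.41%, 10.3% and 12.5% in EAM KO (intervals 4.72 to 11.4%, 7.32 to 14.3% and 6.47 to 22.8%). The effective number of segments, the inverse of the sum of squared shares of FPKM, was 25.6, 34.6 and 13.3 in EAM WT and 31.5, 33 and 18.3 in EAM KO. It was 9.02 and 8.03 in control, where about 17 to 19 fragments set its limit.

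Some leading segments were high in 1 library and low or at 0 in another of the same group. Igkv16-104 was at 0, 7.25 and 0.364 FPKM in EAM WT and at 3.18, 0.338 and 0 in EAM KO. Igkv14-111 was at 0, 7.09 and 0 in EAM WT, about 39.9 fragments in the second library, and at 0, 0.174 and 0 in EAM KO. Igkv5-43 was at 8.25, 1.38 and 0.908 in EAM WT, at 0.352, 0.506 and 0 in EAM KO, and at 0 and 0.359 in control. The EAM groups overlapped for Igkv16-104 and Igkv14-111, whereas for Igkv5-43 every EAM WT library lay above every EAM KO library (adjusted p = 0.153 by limma). Igkv5-43 entered that test through EAM WT 1 and EAM WT 2 alone. The nearest copy of Igkv5-43, Igkv5-45, is 99% identical to it. The other leading segments of single libraries were Igkv14-126 and Igkv4-59 in EAM KO 1 (2.8 and 2.36 FPKM), Igkv15-103 and Igkv10-94 in EAM KO 2 (3.07 and 2.39), and Igkv10-96 and Igkv1-135 in EAM KO 3 (1.19 and 0.775). In control, the leading values were 0.49 FPKM for Ighv2-9, 0.45 for Igkv1-135 and 0.329 for Igkv10-96 in the first library, and 0.739 for Igkv4-59, 0.518 for Igkv4-68 and 0.505 for Igkv1-117 in the second.

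**Figure D2:**
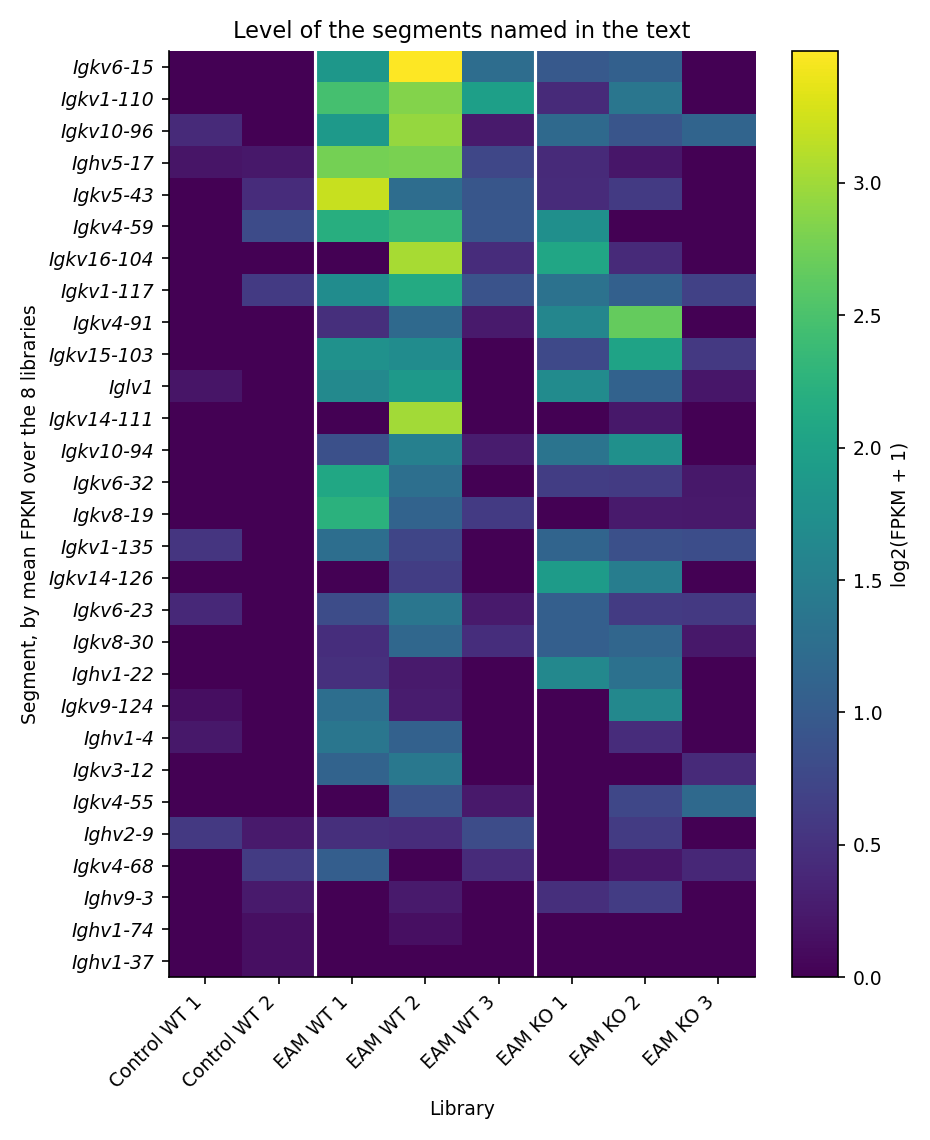
Level of the segments named by rule in each library, as log2(FPKM + 1) in colour, with segments ordered by their mean FPKM and white lines between the groups. Control columns are near 0 throughout, and the brightest cell lies in a different row in each EAM library.

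The test on single segments compared EAM WT with control, which asks what changed in wild-type hearts with EAM. It was limma on log2(FPKM + 1) over 10393 genes with at least 1 FPKM in at least 2 libraries, with Benjamini-Hochberg adjustment over all of them. Only 22 of the 147 segments reached that level, all of them through EAM libraries, since no segment reached 1 FPKM in a control. For that reason their count and direction say nothing about the 147. Across all genes 141 (1.36%) were higher and 14 (0.135%) lower in EAM WT, and the 1 segment called, higher, was Igkv1-110.

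Igkv1-110 was listed at 0 in both controls and at 4.51, 6.18 and 2.92 FPKM in EAM WT, about 26, 37.9 and 16.9 fragments. All 3 EAM WT libraries lay above both controls. The fitted difference on the log2(FPKM + 1) scale was 2.43 (SE 0.37), with an adjusted p of 0.0152 by limma. Outside EAM WT, Igkv1-110 reached 1 FPKM in EAM KO 2 alone. It thus entered the test through the group where it is high, so the call adds no support. The call was lost without control 1 (adjusted p = 0.123 by limma), without control 2 (0.102), without EAM WT 1 (0.054) and with no filter on level (0.0638), and the difference stayed at 2.41 to 2.43 in these fits. Without the 3 libraries high in atrial genes the difference was 2.22. Igkv1-110 entered that fit through EAM WT 1 and EAM WT 3 alone, so the fit adds no support. Its nearest copy, Igkv1-117, is 96.8% identical over the V exon and was at 0 and 0.505 FPKM in control and at 2.24, 3.39 and 0.851 in EAM WT (adjusted p = 0.118 by limma).

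The other large differences from control did not pass the threshold. Igkv6-15 was at 0 in both controls and at 2.6, 10.3 and 1.39 FPKM in EAM WT, a difference of 2.2 on the log2(FPKM + 1) scale (SE 0.57, adjusted p = 0.105 by limma). Ighv5-17 was at 0.146 and 0.168 FPKM in control and at 5.83, 5.96 and 0.68 in EAM WT (1.9 on the log2(FPKM + 1) scale, SE 0.52, adjusted p = 0.126 by limma). For both, all 3 EAM WT libraries lay above both controls. EAM WT 3 lay far below the others for Ighv5-17, and EAM WT 2 far above the others for Igkv6-15. Ighv5-17 passed without EAM WT 3 (2.58, adjusted p = 0.00164 by limma), and Igkv6-15 passed without the 3 libraries high in atrial genes (1.55, adjusted p = 0.0051 by limma). In these fits each entered the test through the remaining EAM WT libraries alone, so the calls support nothing. Igkv8-19 was at 0 in control and at 3.71, 1.16 and 0.51 FPKM in EAM WT (adjusted p = 0.138 by limma). The remaining 17 of the tested segments had adjusted p-values of 0.227 to 0.882. No segment was lower in EAM WT by more than a fraction of a fragment: the most negative differences in mean were those of Ighv1-37, Ighv9-3 and Ighv1-74, at -0.0521, -0.0349 and -0.0188 FPKM.

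The comparison of EAM KO with EAM WT asks what differed between TRIM21KO and wild-type hearts with EAM. There is no knockout library at day 0, so differences present before EAM cannot be told apart. Over the same 10393 genes, 30 (0.289%) were higher and 291 (2.8%) lower in the knockout, with a median log2 difference of -0.116 over all genes. One of the 22 tested segments was called, lower, and it was again Igkv1-110. Outside EAM WT, Igkv1-110 reached 1 FPKM in EAM KO 2 alone. It thus entered the test through the group where it is high, so this call adds no support either. It was at 0.333, 1.59 and 0 FPKM in EAM KO, below all 3 EAM WT libraries, and the fitted difference was -1.83 on the log2(FPKM + 1) scale (SE 0.33, adjusted p = 0.0244 by limma). The comparisons share the EAM WT libraries, so the same high values enter both. This call was lost without EAM WT 1, EAM WT 2, EAM KO 1 or EAM KO 3, with adjusted p-values by limma of 0.0832, 0.0542, 0.0555 and 0.0529. It was also lost with a pseudocount of 0.1 (0.0662), with no filter on level (0.0755) and with libraries scaled by median ratios (0.0558). Without the 3 libraries high in atrial genes the difference was -2.22, with EAM KO 3 as the lone knockout library. Igkv1-110 entered that fit through EAM WT 1 and EAM WT 3 alone, so the fit adds no support.

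Ighv5-17 came next and did not pass. It was at 0.33, 0.158 and 0 FPKM in EAM KO, against 5.83, 5.96 and 0.68 in EAM WT, so the groups did not overlap (difference -1.9 on the log2(FPKM + 1) scale, SE 0.47, adjusted p = 0.0641 by limma). It passed without EAM WT 3 (-2.58, adjusted p = 0.000386 by limma). In that fit and in the main fit it entered through EAM WT 1 and EAM WT 2 alone, so neither fit supports a difference. The knockout values equalled 2.01, 1 and 0 fragments and the control values 1 fragment each, all under the limit of 3 fragments. Igkv6-15 was at 0.962, 1.1 and 0 FPKM in EAM KO, also below all 3 EAM WT libraries (-1.52 on the log2(FPKM + 1) scale, SE 0.51, adjusted p = 0.141 by limma). Without the 3 libraries high in atrial genes it was -1.55 (adjusted p = 0.0198 by limma), with the same limit on its entry to the test. Igkv8-19, at 0, 0.189 and 0.181 FPKM in EAM KO, had a difference of -1.15 (SE 0.34, adjusted p = 0.105 by limma). Igkv8-19 also entered the main fit through EAM WT 1 and EAM WT 2 alone.

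The 3 segments with the largest higher means in the knockout had their knockout signal in its first and second libraries. Igkv4-91 was at 2.05, 5.36 and 0 FPKM in EAM KO and at 0.388, 1.28 and 0.192 in EAM WT. Igkv14-126 was at 2.8, 1.79 and 0 FPKM in EAM KO and at 0, 0.547 and 0 in EAM WT. Ighv1-22 was at 2.09, 1.46 and 0 FPKM in EAM KO and at 0.396, 0.186 and 0 in EAM WT. In all 3 the third knockout library was at 0 and the groups overlapped. Their adjusted p-values by limma were 0.467, 0.263 and 0.292. Without EAM KO 3, Ighv1-22 and Igkv14-126 were called higher (adjusted p = 0.0141 and 0.016 by limma), but both entered the test through EAM KO 1 and EAM KO 2 alone, so these calls support nothing. Both entered the main fit through the same libraries.

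EAM KO against control gave no called segment. Over all genes limma called 59 (0.568%) higher and 83 (0.799%) lower in the knockout. Of the 22 tested segments 4 (18.2%) had an unadjusted p under 0.05, against 1422 of the 10393 genes (13.7%), and the lowest adjusted p was 0.277, for Igkv8-30. Igkv8-30 was at 0 in both controls and at 1.09, 1.22 and 0.166 FPKM in EAM KO. Without EAM KO 3, Ighv1-22, Igkv14-126 and Igkv4-91 were called higher (adjusted p = 0.0102, 0.0142 and 0.03 by limma). The first and second of them entered the test through EAM KO 1 and EAM KO 2 alone. Outside the knockout, Igkv4-91 reached 1 FPKM in EAM WT 2 alone, so it too entered through the group where it is high. These calls therefore support nothing.

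Heavy-chain segments were also grouped by family. The Ighv1 family is the largest, with 93 rows in the table and 36 of the 67 heavy-chain segments. Its share of heavy-chain segment fragments was 38.9%, 26.7% and 8.15% in EAM WT, on 95, 153 and 14 fragments (95% Wilson intervals 29.8 to 49%, 20.4 to 34.3% and 1.27 to 31.5%). It was 71.4%, 57.3% and 63.4% in EAM KO, on 56, 75 and 8 fragments (intervals 58.5 to 81.6%, 46.1 to 67.9% and 30.6 to 86.3%). Every knockout library lay above every EAM WT library, at 64 ± 7.07% (SD, n = 3) against 24.6 ± 15.5% (SD, n = 3). Control, at 23.5% and 26.4% on 7 and 4 fragments, was too shallow to place (intervals 8.22 to 64.1% and 4.56 to 69.9%). Leaving out any EAM library kept the difference between 31.2 and 46.6 percentage points, and without the 3 libraries high in atrial genes it was 39.8 points. The summed level of the family was 7.09, 7.13 and 0.2 FPKM in EAM WT and 7.11, 7.36 and 0.894 in EAM KO, where the groups overlapped. All heavy-chain segments summed to 17.4, 26.4 and 2.51 FPKM in EAM WT and 9.87, 13 and 1.41 in EAM KO. The higher Ighv1 share in the knockout is thus not a higher Ighv1 level across its libraries. The share was chosen after the values were seen, was not tested, and is given as a description.

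Ighv5 family segments went the other way. They held 35.9%, 26.7% and 49.8% of heavy-chain segment fragments in EAM WT (95% Wilson intervals 26.9 to 45.8%, 20.4 to 34.3% and 26.8 to 73.2%). They held 3.6%, 6.81% and 12.2% in EAM KO (intervals 0.985 to 12.1%, 2.88 to 14.7% and 2.24 to 47.1%). The groups did not overlap, although the third library of each EAM group rested on 14 and 8 fragments. Most of the Ighv5 signal in EAM WT was Ighv5-17, which alone made all of it in the first library.

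**Figure D3:**
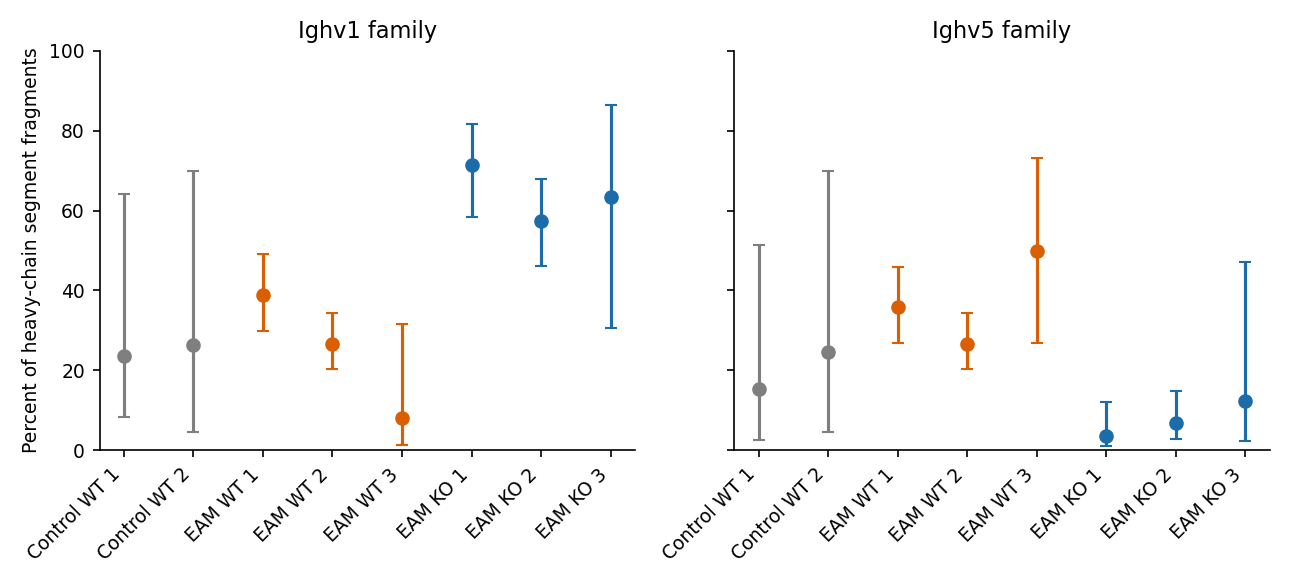
Percent of heavy-chain segment fragments that fell on the Ighv1 family (left) and the Ighv5 family (right) in each library, with 95% Wilson intervals for counting error. The knockout points lie at 57.3 to 71.4% for Ighv1 and at 3.6 to 12.2% for Ighv5, and the EAM WT points at 8.15 to 38.9% and 26.7 to 49.8%.

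Position along the heavy-chain locus was described in the same way. With the 185 rows put in order from the constant genes and divided into equal parts of 61 or 62, the part farthest from the constant genes held 10.7%, 14% and 0% of heavy-chain segment FPKM in EAM WT. It held 22.5%, 37.4% and 49.8% in EAM KO. The nearest part held 48.6%, 49.6% and 92% in EAM WT and 24.2%, 27% and 24.6% in EAM KO. The EAM groups did not overlap in either part, although EAM WT 3 and EAM KO 3 rested on 14 and 8 heavy-chain fragments. All Ighv5 segments above 0 lie in the nearest part, and all Ighv1 segments above 0 lie in the other parts. These shares therefore restate the family shares in part. The middle part held 40.7%, 36.4% and 7.95% in EAM WT and 53.3%, 35.6% and 25.6% in EAM KO, where the groups overlapped. In the kappa locus, divided into parts of 54 rows, the EAM groups overlapped in each part.

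Segments found in 1 EAM genotype and not in the other were weakly expressed. The 7 segments above 0 in at least 2 knockout libraries and in no EAM WT library were Ighv1-39, Ighv1-55, Ighv1-71, Ighv1-72, Ighv1-76, Ighv1-78 and Ighv13-2, all of the heavy chain. The highest among them was Ighv1-72, at 0.506 and 0.807 FPKM in EAM KO 1 and 2. Ighv1-76 and Ighv1-78 were at 0.0954 to 0.101 FPKM, under 1 fragment each, and Ighv1-71 has a copy, Ighv1-62-2, with an identical V exon. The 8 with the opposite pattern were Ighv1-12, Ighv1-5, Ighv1-54, Ighv2-5, Ighv3-2, Ighv5-12, Ighv7-1 and Igkv10-95, all but Igkv10-95 of the heavy chain. The share of all genes with either pattern was not computed, so the counts of 7 and 8 are a description only. Of these, Ighv7-1 reached 1.44 FPKM and Ighv1-54 reached 1.04 FPKM, both in EAM WT 2, and Ighv1-5 was above 0 in all 3 EAM WT libraries, at 0.403, 0.284 and 0.2 FPKM.

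A gene near Trim21 also differed between the genotypes in these libraries. Hbb-bt, a beta-globin gene 1247 kb from Trim21 on chromosome 7, was at 74.9, 58.1 and 62.2 FPKM in EAM KO, against 15.4, 9.1 and 10.2 in EAM WT and 8.66 and 22.7 in control. It was higher in the knockout than in EAM WT by 2.42 on the log2(FPKM + 1) scale (SE 0.31, adjusted p = 0.00627 by limma). Hbb-bs, another beta-globin gene 1261 kb from Trim21, went the other way. It was at 55.8, 47 and 62.6 FPKM in EAM KO, 77.1, 148 and 88 in EAM WT, and 136 and 157 in control. Its difference was -0.86 from EAM WT (adjusted p = 0.0782 by limma) and -1.4 from control (adjusted p = 0.0375 by limma). Both genes were chosen after their values were seen. As background, inbred mouse strains differ in their beta-globin genes and in their sets of heavy-chain segments and constant genes, and the mm10 reference comes from C57BL/6J. Whether the knockout mice carry other alleles at the heavy-chain locus, and what part that or the reference strain plays in the family shares, was not tested.

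Constant genes, which follow the variable segment in an antibody transcript, varied from library to library much as the segments did. Igkc, the kappa constant gene, was at 3.55 and 5.75 FPKM in control, 95.2, 193 and 19.8 in EAM WT, and 70.3, 96.6 and 8.04 in EAM KO. The summed kappa segments came to 0.425 and 0.452 of Igkc in control, 0.607, 0.512 and 0.602 in EAM WT, and 0.445, 0.367 and 1.09 in EAM KO. The ratio was thus between 0.367 and 0.607 in 7 of the 8 libraries and highest in EAM KO 3, which held 54 kappa fragments. Igkc did not pass the test against control in EAM WT (3.72 on the log2(FPKM + 1) scale, SE 1.08, adjusted p = 0.137 by limma) or between the EAM groups (adjusted p = 0.647 by limma). Without the 3 libraries high in atrial genes it passed against control (3.01, adjusted p = 0.0309 by limma) and not between the EAM groups (-2.31, adjusted p = 0.199 by limma).

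The make-up of the heavy-chain constant transcripts is given as a description. Igha, the constant gene of IgA, was at 18.1, 18.2 and 2.09 FPKM in EAM WT, at 2.31, 3.92 and 0.651 in EAM KO, and at 0.236 and 0.272 in control. It held 54.7%, 35.1% and 15.7% of the summed heavy-chain constant FPKM in EAM WT and 8.22%, 11.3% and 6.27% in EAM KO, so the shares did not overlap. Ighm, the constant gene of IgM, held 30.6%, 39.3% and 72.4% in EAM WT and 80.1%, 80.4% and 73.9% in EAM KO, so that EAM WT 3 lay close to EAM KO 3. Between the EAM groups neither Igha (-1.8 on the log2(FPKM + 1) scale, SE 0.66, adjusted p = 0.175 by limma) nor Ighm (adjusted p = 0.634 by limma) passed the threshold. Ighg1 and Ighg2b, constant genes of IgG subclasses, were highest in EAM WT 2 at 5.3 and 4.08 FPKM and at most 0.242 FPKM in the knockout. In EAM WT 3 they were at 0.0947 and 0.092 FPKM, within the knockout's range, and they did not pass between the EAM groups, with adjusted p-values by limma of 0.202 and 0.193. Ighg2c was at 0.288, 2.6 and 0.178 FPKM in EAM WT and at 1.69, 1.82 and 0.949 in EAM KO.

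Genes of antibody-secreting cells varied with the segments only in part. Jchain, which joins IgA and IgM into polymers, was at 0.0485 and 0.093 FPKM in control, 2.97, 5.68 and 0.414 in EAM WT, and 1.72, 2.34 and 0.0502 in EAM KO, the same order of libraries within each EAM group as the summed segments. No comparison passed for Jchain, with adjusted p-values by limma of 0.262 for EAM WT against control and 0.546 between the EAM groups. No other gene of the plasma cell list kept this order in both EAM groups. Xbp1 was at 14.1 to 22.1 FPKM, Mzb1 at 0.742 to 1.38 and Sdc1 at 0.863 to 1.47 across the 8 libraries. Mzb1 kept the order in EAM KO alone, and Derl3 in EAM WT alone, at 0.104, 0.293 and 0 FPKM. Prdm1 was at 0.314 and 0.215 FPKM in control, 0.448, 0.544 and 0.495 in EAM WT, and 0.523, 0.767 and 1.02 in EAM KO. Xbp1, Mzb1 and Sdc1 are also expressed outside plasma cells.

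The B cell list of 14 genes, Cd79a and Cd79b among them, summed to 1.36 and 2.32 FPKM in control, 2.46, 2.87 and 2.71 in EAM WT, and 4.14, 3.28 and 2.93 in EAM KO. Cd79a, a part of the B cell receptor, was at 0.446 and 0.98 FPKM in control, 0.429, 0.896 and 0.378 in EAM WT, and 1.19, 1.58 and 0.964 in EAM KO. Without Cd79a the list summed to 2.03, 1.97 and 2.33 FPKM in EAM WT and to 2.95, 1.7 and 1.97 in EAM KO, where the groups overlapped. Cd79a did not pass between the EAM groups (0.52 on the log2(FPKM + 1) scale, SE 0.18, adjusted p = 0.146 by limma). Rag1 and Rag2, which drive recombination of the segments, were listed at 0 in all 8 libraries. Of 170 rows for T cell receptor variable segments, the like gene family of T cells, 143 were at 0 in all libraries, and 1 and 5 were above 0 in control, 7, 6 and 13 in EAM WT, and 1, 10 and 2 in EAM KO. EAM WT 3, low in immunoglobulin segments, held the most of these.

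Other transcripts also differed between the libraries, and their part in the results was not tested. Cxcl13, a B cell chemokine of lymphoid tissue, was at 0.103 and 0 FPKM in control, 0.242, 4.71 and 0.598 in EAM WT, and 2.21, 0.945 and 0.106 in EAM KO. Of the 7 lymph node and thymus genes, Ccl19, Ccl21a, Foxn1 and Psmb11 were at 0 in all 8 libraries. The 3 libraries with atrial sums of 5382, 4936 and 3968 FPKM (EAM WT 2, EAM KO 1 and EAM KO 2) had 102, 64 and 83 segments. EAM WT 1 had 73 segments and a segment sum of 77.4 FPKM with an atrial sum of 393 FPKM. The T cell list of 10 genes summed to 0.682 and 2.2 FPKM in control, 7.05, 7.98 and 7.13 in EAM WT, and 5.18, 4.32 and 1.99 in EAM KO. The 5 erythrocyte genes summed to 256 and 520 FPKM in control and 243 to 312 FPKM in the EAM libraries. The heart muscle genes Myh6, Actc1, Tnnt2 and Myl2 summed to 7195 to 9707 FPKM in all 8 libraries, as the tissue label says.

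**Figure D4:**
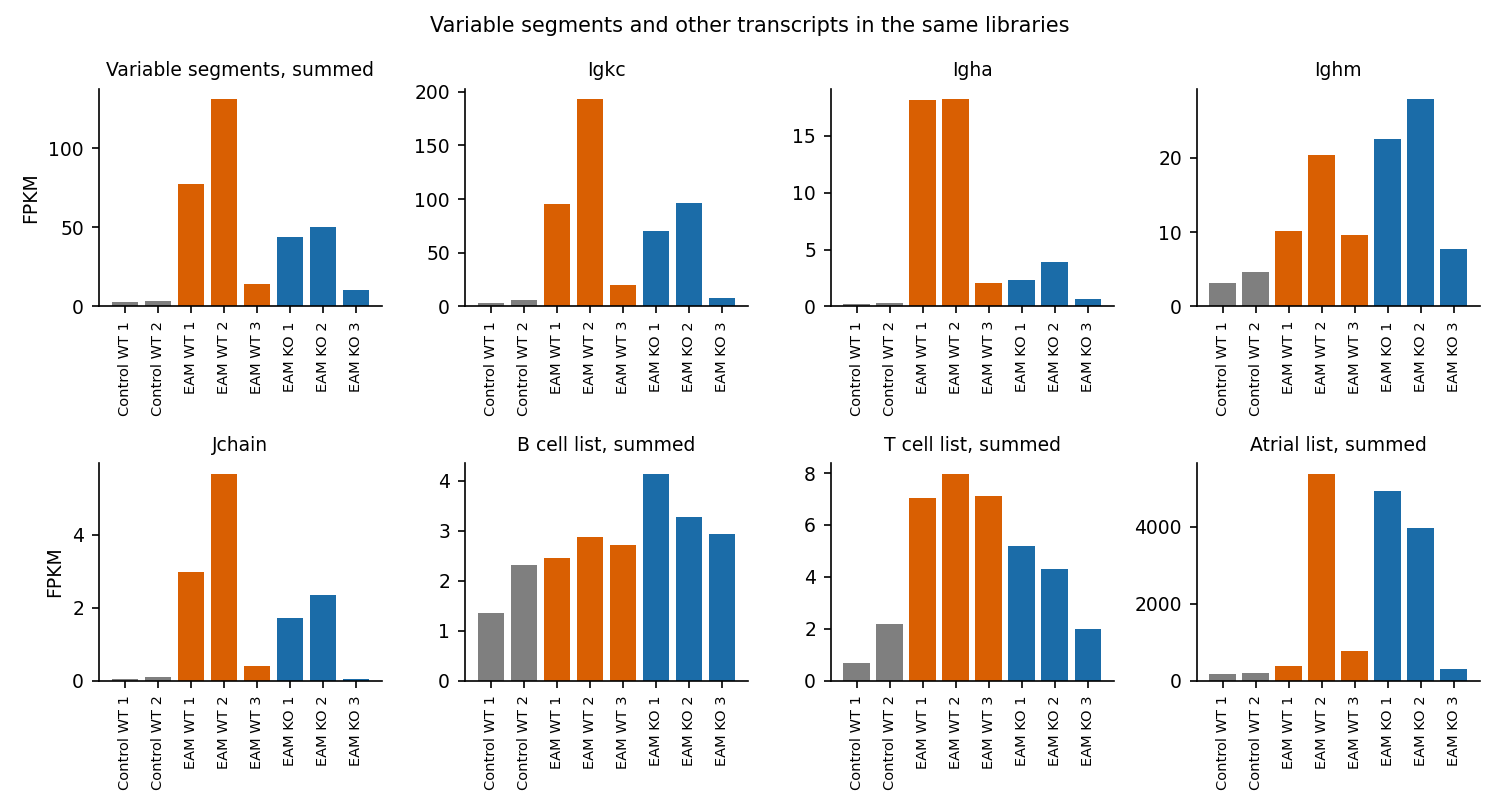
Summed FPKM of the variable segments beside 4 immunoglobulin-related genes and the summed B cell, T cell and atrial lists in each library, each panel on its own linear axis from 0 (grey, control; orange, EAM WT; blue, EAM KO). Igkc and Jchain follow the order of the segment sums within each EAM group, the B cell list stays between 1.36 and 4.14 FPKM, and the atrial list is high in 3 libraries.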

How the data were processed

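Messenger RNA of mouse hearts was sequenced in 8 libraries. The authors deposited FPKM values. Per the submitters' processing notes the build was mm10 and the tools were StringTie 1.3.3b, HISAT2 2.0.4 and edgeR, whose roles are not stated. The annotation release, any filter and the use of strand were not given in the sources used here. Reads of overlapping or antisense genes may therefore be mixed. Coordinates are those of the deposited table, and exon lengths, biotypes and V exons came from GENCODE M21, which matched all 350 segment rows. Fragments were estimated as FPKM times exon length times a depth found from steps in the low values. Intervals and floors cover counting error only.

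Detected means above 0 FPKM. Genes with at least 1 FPKM in at least 2 libraries entered a test in limma 3.58.1 (R 4.3.3) of log2(FPKM + 1) values, with all 8 libraries and 3 groups in 1 fit, a mean-variance trend, 5 residual degrees of freedom and Benjamini-Hochberg adjustment at 0.05. The scale understates changes of low genes. The procedure was tested on simulated data. The segments named were those that passed this filter, the 3 highest of each library, any above 0 in all 8 libraries, and the 3 largest rises and falls in mean in EAM WT against control and in EAM KO against EAM WT. Others are named after their values were seen. Members and lists were chosen with earlier results of these data known. Some genes of the lists are not reported here.

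Groups came from the labels. Earlier library names in the second deposited sheet end in 1 and 2 (control), 1, 3 and 4 (EAM WT) and 2, 5 and 6 (EAM KO). What these numbers count is not stated. The replicate numbers of the labels do not all match them and were not taken to pair animals. Alternatives covered the pseudocount (0.1 and 5), the filter, scaling, the trend, a replicate block, the meaning of detected, the libraries high in atrial genes and each library in turn. The number of value columns left unused was 0.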

Additional observations from a re-analysis of the deposited data

How the results depend on the processing

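The number of segments called for EAM WT against control was 1 and became 0 with no filter on level, 6 with a replicate block, 2 without the 3 libraries high in atrial genes, and 0 to 6 with 1 library left out. The test held 22 segments with all libraries and with the block, 3 without the atrial-high libraries and 14 to 22 with 1 library left out. For EAM KO against EAM WT 1 segment, lower, became 0 with median-ratio scaling, 3 with a replicate block, 2 without the atrial-high libraries, and 0 to 4 with 1 library left out, where 2 without EAM KO 3 were higher, not lower. The 1 call was Ighv5-17 with a pseudocount of 0.1 and Ighv1-5 with no filter, in place of Igkv1-110. For EAM KO against control 0 became 2 with a replicate block and 0 to 3 with 1 library left out. The block rests on replicate numbers that are not known to pair animals: same-numbered libraries deviated from their group means with correlations of -0.197 to 0.355 across genes. The difference in segments detected between EAM WT and control, 56.7, was 33.8 at a detection limit of 0.5 FPKM, 31.8 at 3 fragments and 20.3 at 1 FPKM. For EAM KO against control 47.7 became 21.2 at 0.5 FPKM, 10.3 at 1 FPKM, 21.2 at 3 fragments and 20 without the atrial-high libraries, where the log2 ratio of summed FPKM was 1.78 in place of 3.52. Between the EAM groups the difference of -9 segments ranged from -27.8 to 7.67 with 1 library left out, and was 7.67 without EAM WT 2 and 4.83 without EAM KO 3. The cause of these changes was not tested, apart from the fewer segments tested. The log2 ratio of summed FPKM kept its direction in all 3 comparisons under every alternative. Over all genes, the calls for EAM WT against control fell from 141 higher and 14 lower to 58 and 17 with quantile normalization, 74 and 19 with median-ratio scaling and 13 and 2 without control 1. For EAM KO against EAM WT, 30 higher and 291 lower became 46 and 85 with median-ratio scaling and 57 and 98 with quantile normalization. With the block, limma called 110 and 9 genes for EAM WT against control, 28 and 225 for EAM KO against EAM WT, and 53 and 69 for EAM KO against control (59 and 83 without it). Without the atrial-high libraries these were 124 and 12, 6 and 66, and 23 and 38 of 9948 genes. Depth limits single segments: 3 fragments equal about 0.506 to 0.596 FPKM, and controls held about 17.1 and 18.6 segment fragments in all.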
